A study of Mus musculus with 23 samples.

Results

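Cholesterol synthesis, uptake and efflux were followed through 31 genes, picked by symbol from a list of sterol genes, among 22310 named genes in the count table of a mouse brain RNA-seq study. The list holds 18 genes of synthesis, 5 regulators of the sterol response, 2 genes of uptake and intracellular transport, and 6 genes of efflux, storage and removal. All 31 passed the filter on low counts. Brains of C57BL/6J mice gave the 23 libraries. The animals had either wild-type (WT) receptor for colony stimulating factor 1 or Csf1R-G793A, its substituted form, which the study tested for resistance to inhibitors of the receptor. Mice ate control chow, chow with PLX3397 at 290 mg/kg or chow with PLX5622 at 1200 mg/kg for 14 days. Both compounds inhibit the receptor, on whose signal microglia depend. There were 3 WT control libraries and 4 libraries in each of the 5 other groups, which were WT PLX3397, WT PLX5622, G793A control, G793A PLX3397 and G793A PLX5622. Brain region, sex, age and the number of alleles carrying the substitution are not given in the sources used here. Whether every library stands for its own animal is also not stated, and p-values then reflect only how these libraries vary, which may be technical. The chow doses of the compounds differ, and their values are set side by side.

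The brain makes nearly all of its own cholesterol, because lipoproteins of the blood do not cross the blood-brain barrier, and most of it sits in myelin. Acetyl-CoA is built into mevalonate, isoprenoids, squalene and then sterols. When sterols are scarce, SCAP escorts SREBP transcription factors out of the endoplasmic reticulum and the genes of the pathway are switched on, whereas INSIG proteins hold the complex back when sterols are plentiful. Surplus sterol activates the LXR receptors, which switch on the exporters ABCA1 and ABCG1. Astrocytes supply much of the cholesterol used by adult neurons, microglia clear and export sterols from debris, and neurons dispose of the surplus as 24-hydroxycholesterol made by CYP46A1.

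Promoters are shown for 4 members to set the sequence features of synthesis, uptake and efflux genes side by side, with letters from RefSeq on build GRCm38.p6. The count table was made on GRCm39, so these coordinates are not those of its build. Each line gives the 250 bases before the annotated start, 5′ to 3′ on the gene's strand, and capitals mark matches to the sterol regulatory element TCACNCCAC or the NF-Y box CCAAT on either strand. Hmgcs1 lies on the plus strand at chr13:119690101-119690350, Pmvk on the plus strand at chr3:89454291-89454540, Lrp1 on the minus strand at chr10:127621149-127621398 and Abca1 on the minus strand at chr4:53159896-53160145. These windows overlap no annotated exon, and the 4 genes were chosen after values had been seen.
Hmgcs1: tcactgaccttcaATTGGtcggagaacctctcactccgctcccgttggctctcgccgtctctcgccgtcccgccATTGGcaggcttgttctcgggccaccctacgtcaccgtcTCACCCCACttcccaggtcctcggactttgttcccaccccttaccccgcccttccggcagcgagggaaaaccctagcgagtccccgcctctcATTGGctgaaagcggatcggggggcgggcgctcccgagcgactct
Pmvk: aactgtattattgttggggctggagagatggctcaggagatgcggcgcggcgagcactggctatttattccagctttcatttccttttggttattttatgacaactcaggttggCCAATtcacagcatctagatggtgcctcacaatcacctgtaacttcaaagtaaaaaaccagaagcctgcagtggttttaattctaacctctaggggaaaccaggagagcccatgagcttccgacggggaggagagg
Lrp1: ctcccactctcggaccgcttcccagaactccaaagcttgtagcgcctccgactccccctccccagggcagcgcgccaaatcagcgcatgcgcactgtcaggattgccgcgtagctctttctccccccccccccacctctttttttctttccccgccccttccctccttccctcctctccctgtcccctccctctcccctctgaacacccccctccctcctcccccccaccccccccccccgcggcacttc
Abca1: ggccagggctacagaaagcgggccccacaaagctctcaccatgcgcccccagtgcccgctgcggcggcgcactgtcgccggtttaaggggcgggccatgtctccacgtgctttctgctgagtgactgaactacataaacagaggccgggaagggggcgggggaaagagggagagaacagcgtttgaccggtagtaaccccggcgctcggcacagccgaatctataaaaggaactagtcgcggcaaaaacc

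Of the 31 members, 26 had a promoter entry, among them 15 of the 18 synthesis genes. TCACNCCAC was found in 1 of the 26, the Hmgcs1 promoter, where the match is TCACCCCAC starting 137 bases before the start, in 1.05% of all 32851 promoters in the table and in 1.22% of their 27025 genes, a gene counting if any of its promoters matched. Hmgcs1 also had 3 matches to CCAAT on the minus strand, and Pmvk had 1 on the plus strand. CCAAT occurred in 20 of 26 members and in 14 of 15 synthesis genes, against 33.8% of all promoters and 37.5% of genes. The GC box GGGCGG was in 22 of 26 members, 32.7% of promoters and 35.4% of genes, and the E-box CACGTG was in 6 of 26 members, 6.02% of promoters and 6.86% of genes. The LXR element was sought only as a perfect direct repeat of its consensus sequence with a spacer of 4 bases. That exact form was in 0 of 26 members, 0.0152% of promoters and 0.0148% of genes. Imperfect repeats were not searched for, so these values do not show whether Abca1 or any other member holds such an element. A match describes letters only, and a missing match says only that those letters are not in this window.

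Total counts per library were 26.3 to 48.2 mega-counts. Levels are given in CPM (counts per mega-count of the library, scaled by the trimmed mean of M-values). Csf1r, whose product both compounds target, was 92.8 to 95.1 CPM in WT controls, 17.03 to 28.9 with PLX3397 and 5.92 to 15.8 with PLX5622. In G793A it was 78.5 to 88.4 CPM in the controls, 69.9 to 79.7 with PLX3397 and 58.8 to 77.3 with PLX5622. The summed level of 11 homeostatic microglia markers was 396.3 to 425.7 CPM in WT controls, 83.8 to 124 in WT PLX3397 and 43.3 to 91.8 in WT PLX5622. In G793A the sum was 339.1 to 422.1 CPM in the controls, 303.2 to 358.2 with PLX3397 and 289.3 to 350.5 with PLX5622. In bulk tissue, fewer microglia and less of these RNAs per cell cannot be told apart. Cerebellar markers were high in 2 libraries, at 454.4 CPM in G793A PLX5622 replicate 2 and 85.8 CPM in WT PLX5622 replicate 1, against a median of 21.9 CPM. The latter library also held pituitary markers at 100.5 CPM (median 3.03 CPM). Choroid plexus markers ran from 226.4 to 1132 CPM, with 226.4 to 405.7 CPM in G793A PLX5622 and 233 to 1132 CPM in G793A control. Astrocyte, oligodendrocyte and neuron marker sums were high in every library, at 4222 to 6693, 4432 to 6300 and 5715 to 7202 CPM.

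No sterol member passed an adjusted p of 0.05 (edgeR quasi-likelihood test, Benjamini-Hochberg over 16209 genes) in any of 9 comparisons of groups or 2 interaction terms, and levels moved within a narrow range. The highest group mean of a member was 1.05 times (Insig2) to 1.33 times (Lrp1) its lowest, with a median of 1.11, next to 7.68 times for Csf1r. Over the 10065 genes with a mean of 10 CPM or more the median was 1.119. By DESeq2 the threshold was passed by 1 member in WT PLX3397 against WT control (1.64%, 301 of the 18365 genes its own filter kept). It was passed by 2 in G793A PLX5622 against G793A control (4.73%, 331 of the 7003 genes kept there) and by 0 in the other contrasts. In G793A PLX5622 against G793A control that filter left 6 members (Ebp, Mvd, Mvk, Nr1h3, Nsdhl and Tm7sf2) without an adjusted p. By limma on the authors' variance-stabilised values it was passed by 0 members in all 11.

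The background against which these counts stand was as follows. Among all genes, 1.52% passed in WT PLX3397 and 1.66% in WT PLX5622 against WT control, 241 of 247 and 257 of 269 of them lower. In G793A control against WT control 0% passed, in G793A PLX3397 0.00617% and in G793A PLX5622 0%, each against WT control. Against G793A control, 0.00617% passed with PLX3397 and 0% with PLX5622. The direct comparisons of the compounds gave 0% in WT and 0.00617% in G793A. The interaction terms, which subtract the effect of a compound in WT from that in G793A, gave 0.555% for PLX3397 and 0.808% for PLX5622. By DESeq2 the shares in the other 9 contrasts are of the genes it gave an adjusted p, 14840 to 20328 by contrast. Against WT control they were 1.72% in WT PLX5622, 0% in G793A control, 0.202% in G793A PLX3397 and 0.0394% in G793A PLX5622. In G793A PLX3397 against G793A control the share was 0.175%. The shares were 0.059% and 0.00984% between the compounds in WT and G793A, and 0.613% and 0.777% in the interaction terms. By limma they were 1.14% in WT PLX3397, 1.34% in WT PLX5622, 0.0128% in G793A PLX3397 and 0.00642% in G793A PLX5622 against WT control, 0.00642% between the compounds in G793A, 0.372% and 0.584% in the interaction terms, and 0% in the other contrasts.

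An unadjusted p under 0.05 was reached by 7 members in WT PLX3397 (8.21% of all genes) and 4 in WT PLX5622 (8.43%) against WT control. It was reached by 0 in G793A control (11.1%), 3 in G793A PLX3397 (7.24%) and 2 in G793A PLX5622 (6.76%) against WT control. Against G793A control it was reached by 2 members with PLX3397 (11.7%) and 3 with PLX5622 (16.3%). Between the compounds it was reached by 0 members in WT (4.1%) and 5 in G793A (6.85%), and in the interaction terms by 0 for PLX3397 (4.12%) and 3 for PLX5622 (7.44%). As a share of 31, 7 members are 22.6% and 4 are 12.9%, and the other counts are at or under 16.1%.

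**Figure D1:**
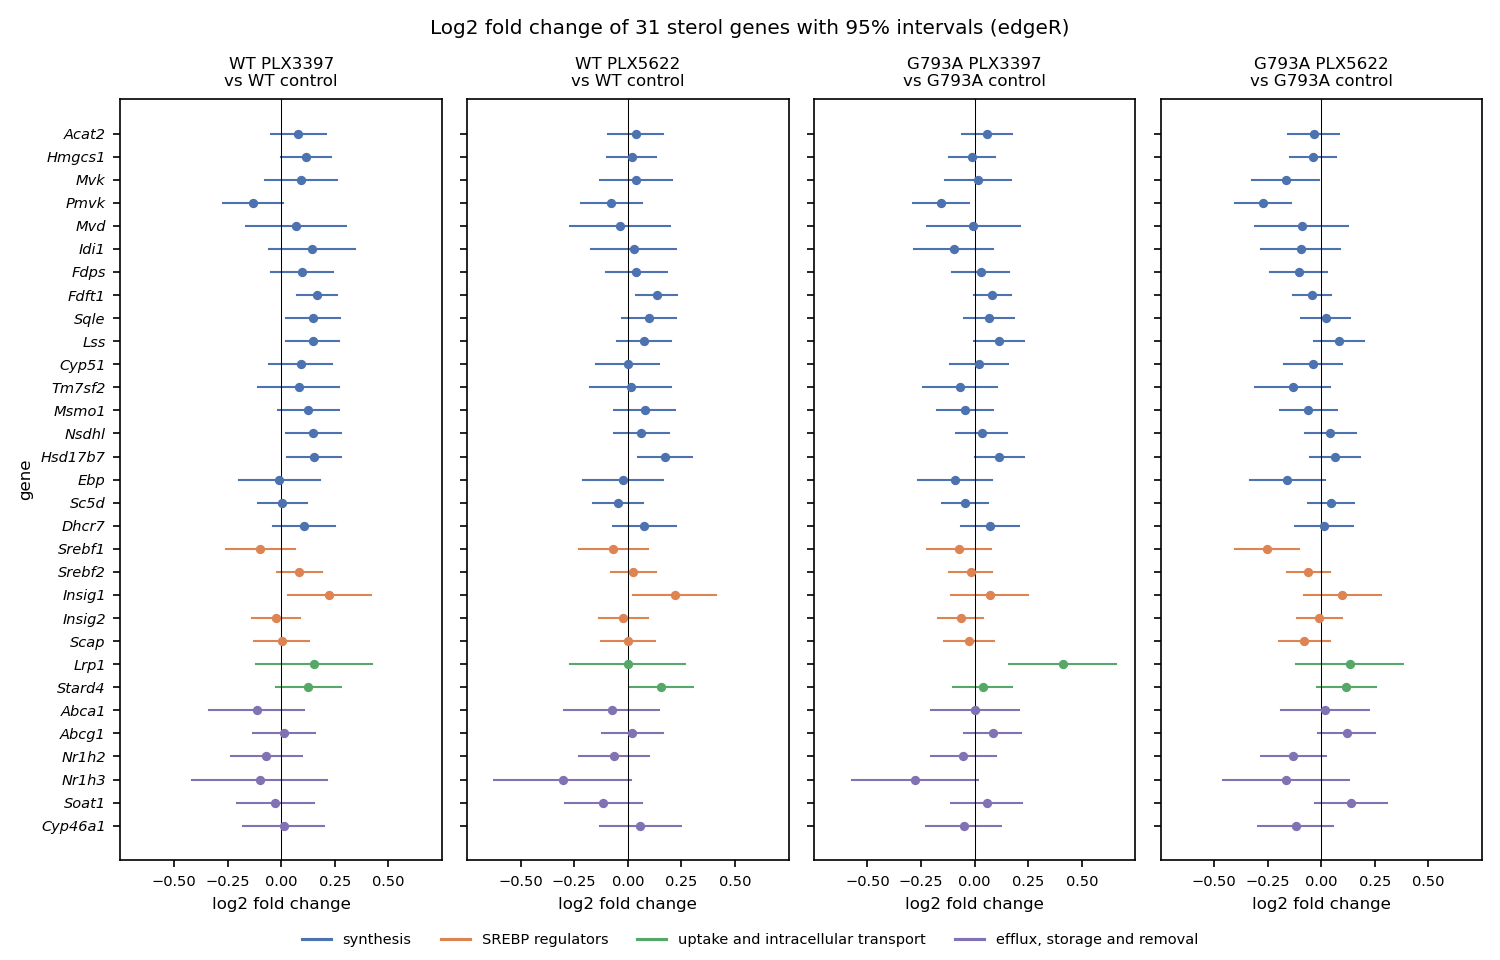
Log2 fold change (x axis) of each of the 31 sterol genes (y axis) in the 4 comparisons of a compound with the control group of its own genotype, with points for estimates, bars for 95% intervals and colours for roles. Synthesis genes sit mostly right of 0 in WT PLX3397 (16 of 18), and Lrp1 in G793A PLX3397 lies farthest from 0, at 0.41.

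In control brain the members covered a wide range of abundance. Per kilobase of transcript, Hmgcs1, the synthase of HMG-CoA, had the highest level in WT controls at 96.8 ± 4.1 CPM per kb (SD, n = 3). Cyp46a1, the neuronal 24-hydroxylase, followed at 74.2 ± 6.1 and Srebf2, which encodes the SREBP that drives cholesterol genes, at 48.01 ± 0.71 CPM per kb. The ranges of these 3 did not overlap. Msmo1 at 42.7 ± 2.6 and Fdps at 42.5 ± 1.7 CPM per kb came next, and their ranges overlapped. From Pmvk (25.4 CPM per kb) through Sqle, Lrp1, Fdft1, Acat2 and Scap to Idi1 (21.6 CPM per kb), each range overlapped that of its neighbour. At the low end stood Hsd17b7 at 5.68 ± 0.30, Abca1 at 4.76 ± 0.61 and Nr1h3, which encodes LXR alpha, at 1.24 ± 0.05 CPM per kb. Lengths are those of the longest basic protein-coding transcript in GENCODE M21, an annotation of an older build than the files.

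Synthesis genes in WT PLX3397 had a median log2 fold change against WT control of 0.10, with 16 of 18 above 0, next to a median of 0.01 and 52.8% above 0 for all genes tested. In WT PLX5622 the median was 0.04 with 13 of 18 above 0, next to 0.01 and 52.8% for all genes. Against the same WT controls, 14 of 18 were above 0 in G793A control (median 0.05) and 16 of 18 in G793A PLX3397 (median 0.07). In G793A PLX5622, 12 of 18 were above 0 (median 0.01). Of all genes, 48.3%, 51.6% and 50.2% were above 0, in the same order. In the WT comparisons no synthesis gene passed the threshold. The 95% intervals there spanned −0.27 to 0.34 on the log2 scale with PLX3397 and −0.27 to 0.30 with PLX5622. All 4 treated libraries exceeded every control for Fdft1, Sqle, Lss and Nsdhl with PLX3397 and for Fdft1, Sqle and Hsd17b7 with PLX5622. Over all members this made 4 higher and 0 lower with PLX3397, against 4.94% and 6.12% of all genes. With PLX5622 it made 4 higher and 1 lower, against 3.68% and 5.26% of all genes. Oligodendrocyte precursor markers summed to 139 to 159 CPM in WT PLX3397 and 168 to 196 in WT controls, and red blood cell markers to 37.2 to 100.4 and 173 to 306.1 CPM. In G793A the precursor markers summed to 109.5 to 153.2 CPM with PLX3397 and 172.8 to 178.7 CPM in the controls. Red blood cell markers there summed to 67.8 to 216 and 133.4 to 455.8 CPM. The part of either in the synthesis values was not tested.

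Fdft1, squalene synthase, which commits isoprenoids to sterols, had the smallest p of the members in both WT comparisons. It was at 86.3, 89.9 and 82.3 CPM in the WT controls, 93.6, 91.4, 103 and 98.9 CPM with PLX3397 and 94.5, 94.7, 93.7 and 95.2 CPM with PLX5622. In G793A it was at 91.9, 85.5, 90.8 and 94.8 CPM in the controls, 95.5, 95.9, 97.9 and 95.1 CPM with PLX3397 and 89.3, 87.2, 87.8 and 88.1 CPM with PLX5622. All 8 inhibitor libraries of WT lay above the 3 WT controls. The log2 fold change was 0.17 ± 0.05 (SE; 95% interval 0.07 to 0.26, adjusted p = 0.0762, edgeR) with PLX3397 and 0.13 ± 0.05 (0.04 to 0.23, adjusted p = 0.243) with PLX5622. DESeq2 placed the first under the threshold (0.16, adjusted p = 0.0153), and without WT PLX3397 replicate 2 edgeR did so too (adjusted p = 0.0423). Leaving out WT control replicate 3 gave an adjusted p of 0.488. In G793A the difference from G793A control was 0.08 ± 0.04 with PLX3397 (adjusted p = 0.442) and −0.04 ± 0.04 with PLX5622 (adjusted p = 0.658). The 4 G793A PLX3397 libraries lay above the 4 G793A controls, whereas those with PLX5622 overlapped them. The difference between genotypes in the PLX5622 effect was −0.18 ± 0.06 (adjusted p = 0.458), which misses the threshold.

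Early steps of synthesis build the isoprenoid units. Hmgcs1 was at 342, 345 and 319 CPM in the WT controls, 362, 343, 369.9 and 378 CPM with PLX3397 and 331, 352, 347 and 327 CPM with PLX5622. The G793A libraries gave 356, 328, 321 and 355 CPM in the controls, 319, 322, 348 and 362 CPM with PLX3397 and 320.5, 338, 347 and 320.1 CPM with PLX5622. The highest group mean was that of WT PLX3397, at 0.12 ± 0.06 against WT control (adjusted p = 0.601, edgeR), and its libraries overlapped the controls. The difference with PLX5622 was 0.02 ± 0.06 (−0.10 to 0.13). Idi1, which interconverts the isoprenoid units, was at 71.4, 62.7 and 61.7 CPM in the WT controls, 69.1, 65.3, 72.1 and 81.9 CPM with PLX3397 and 73.3, 70.3, 56.1 and 66.3 CPM with PLX5622. For G793A the Idi1 values were 68.3, 63.2, 81.9 and 80.3 CPM in the controls, 65.4, 67.5, 72.6 and 68.9 CPM with PLX3397 and 65.1, 70.3, 75.9 and 63.3 CPM with PLX5622. Its groups overlapped throughout, with 0.14 ± 0.10 in WT PLX3397 and −0.10 ± 0.09 in G793A PLX3397. Acat2, which joins acetyl-CoA units, Mvd, the last step to isopentenyl pyrophosphate, and Fdps, which makes farnesyl pyrophosphate, differed from the control of their own genotype by −0.10 to 0.10 in the 4 comparisons.

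Pmvk, phosphomevalonate kinase, was below 0 in all 4 comparisons within genotype. Its WT values were 31.9, 28.6 and 30.4 CPM in the WT controls, 29.7, 25.98, 26.4 and 28.7 CPM with PLX3397 and 29.3, 28.6, 28.3 and 28.7 CPM with PLX5622. In G793A they were 36.9, 29.2, 33.4 and 32.8 CPM in the controls, 29.96, 31.6, 29.1 and 27.9 CPM with PLX3397 and 27.2, 26.4, 26.97 and 28.9 CPM with PLX5622. All 4 G793A PLX5622 libraries lay below all 4 G793A controls. The difference was −0.27 ± 0.06 (95% interval −0.40 to −0.14, adjusted p = 0.147, edgeR). Without G793A control replicate 2 the adjusted p was 0.0167, without G793A control replicate 3 it was 0.525, and by DESeq2 it was 0.0139. With trends along transcript length and GC content taken out of each library, the Pmvk difference was −0.12. With PLX3397 it was −0.16 ± 0.06 in G793A (adjusted p = 0.381) and −0.13 ± 0.07 in WT (adjusted p = 0.652). Mvk, the kinase of the step before, was at 17.8, 14.8 and 14.5 CPM in the WT controls, 16.4, 17.5, 15.7 and 17.4 CPM with PLX3397 and 16.03, 15.4, 17.1 and 15.9 CPM with PLX5622. In G793A, Mvk was at 18.6, 14.5, 17.9 and 16.6 CPM in the controls, 16.1, 16.4, 17.5 and 18.1 CPM with PLX3397 and 15.2, 14.6, 15.3 and 14.9 CPM with PLX5622. It differed by −0.17 ± 0.08 between G793A PLX5622 and G793A control, with overlapping libraries (adjusted p = 0.273), and by −0.04 after the length and GC trends were taken out.

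Later steps convert squalene to cholesterol. Sqle, squalene epoxidase and a rate-limiting enzyme, was at 70.6, 69.2 and 66.6 CPM in the WT controls, 70.8, 70.7, 83.2 and 80.5 CPM with PLX3397 and 72.6, 71.9, 76.8 and 73.2 CPM with PLX5622. Its G793A values were 68.3, 66.9, 66.03 and 71.97 CPM in the controls, 69.8, 69.6, 79.4 and 67.4 CPM with PLX3397 and 71.3, 69.9, 69.2 and 66.7 CPM with PLX5622. Both WT inhibitor groups lay above the controls, by 0.15 ± 0.06 with PLX3397 (adjusted p = 0.45, edgeR) and 0.10 ± 0.06 with PLX5622 (adjusted p = 0.767), though the lowest treated library exceeded the highest control by under 1 CPM in PLX3397. Nsdhl, which removes the C4 methyl groups with Msmo1, was at 24.7, 22.99 and 22.5 CPM in the WT controls, 26.03, 25.9, 26.1 and 25.7 CPM with PLX3397 and 25.4, 23.5, 25.8 and 22.99 CPM with PLX5622. Nsdhl in G793A stood at 24.04, 22.4, 25.1 and 25.2 CPM in the controls, 22.9, 25.1, 26.4 and 24.5 CPM with PLX3397 and 25.6, 23.5, 26.2 and 24.3 CPM with PLX5622. The WT PLX3397 libraries were tight and above the controls (0.15 ± 0.06, adjusted p = 0.448). Hsd17b7, the ketoreductase of the same complex, was at 24.8, 27.6 and 26.2 CPM in the WT controls, 27.6, 29.8, 28.8 and 30.2 CPM with PLX3397 and 28.3, 30.5, 27.9 and 31.6 CPM with PLX5622. For G793A the levels were 23.6, 27.1, 24.7 and 26.96 CPM in the controls, 27.7, 26.3, 28.01 and 28.9 CPM with PLX3397 and 27.3, 27.4, 26.2 and 26.1 CPM with PLX5622. With PLX5622 the WT libraries lay above the controls (0.17 ± 0.06, adjusted p = 0.28), and with PLX3397 they overlapped by a single library (0.15 ± 0.06, adjusted p = 0.446).

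Among the remaining genes of the late pathway, Lss, which closes the sterol rings, differed from WT control by 0.15 ± 0.06 with PLX3397 (adjusted p = 0.452, edgeR) and 0.08 ± 0.06 with PLX5622. Cyp51, the lanosterol demethylase, differed by 0.09 ± 0.07 and 0.00, Msmo1 by 0.13 ± 0.07 and 0.08 ± 0.07, and Dhcr7, the last reductase, by 0.11 ± 0.07 and 0.08 ± 0.07. Tm7sf2, a sterol reductase, differed by 0.08 ± 0.09 and 0.01 ± 0.09. Ebp, a sterol isomerase, and Sc5d, a desaturase, were at −0.01 and 0.01 with PLX3397 and −0.02 and −0.05 with PLX5622. None of these intervals excluded 0 apart from that of Lss with PLX3397 (0.02 to 0.27).

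In G793A the synthesis genes had a median log2 fold change of 0.02 with PLX3397 (10 of 18 above 0) and −0.04 with PLX5622 (6 of 18 above 0), next to 0.00 and 51% above 0, and 0.00 and 49.9% above 0, for all genes. Libraries did not overlap G793A control for 1 member on the high side and 0 on the low side with PLX3397 (1.92% and 2.12% of all genes). With PLX5622 they did not overlap for 0 on the high side and 2 on the low side, Pmvk and Srebf1 (2.55% and 2.83%). The inhibitor effects of the genotypes were compared in the interaction terms, which use the same control libraries as the comparisons above. For PLX3397 all 18 synthesis values were below 0, with a median of −0.08 and a range of −0.24 to −0.02, while 49.9% of all genes were above 0. With length and GC trends taken out, 1 of the 18 was above 0 and the median was −0.06. None of the 18 had an unadjusted p under 0.05, and their 95% intervals spanned −0.51 to 0.24. For PLX5622 the median was −0.09 with 2 of 18 above 0. With length and GC trends taken out, the PLX5622 median was −0.06 with 2 of 18 above 0.

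**Figure D2:**
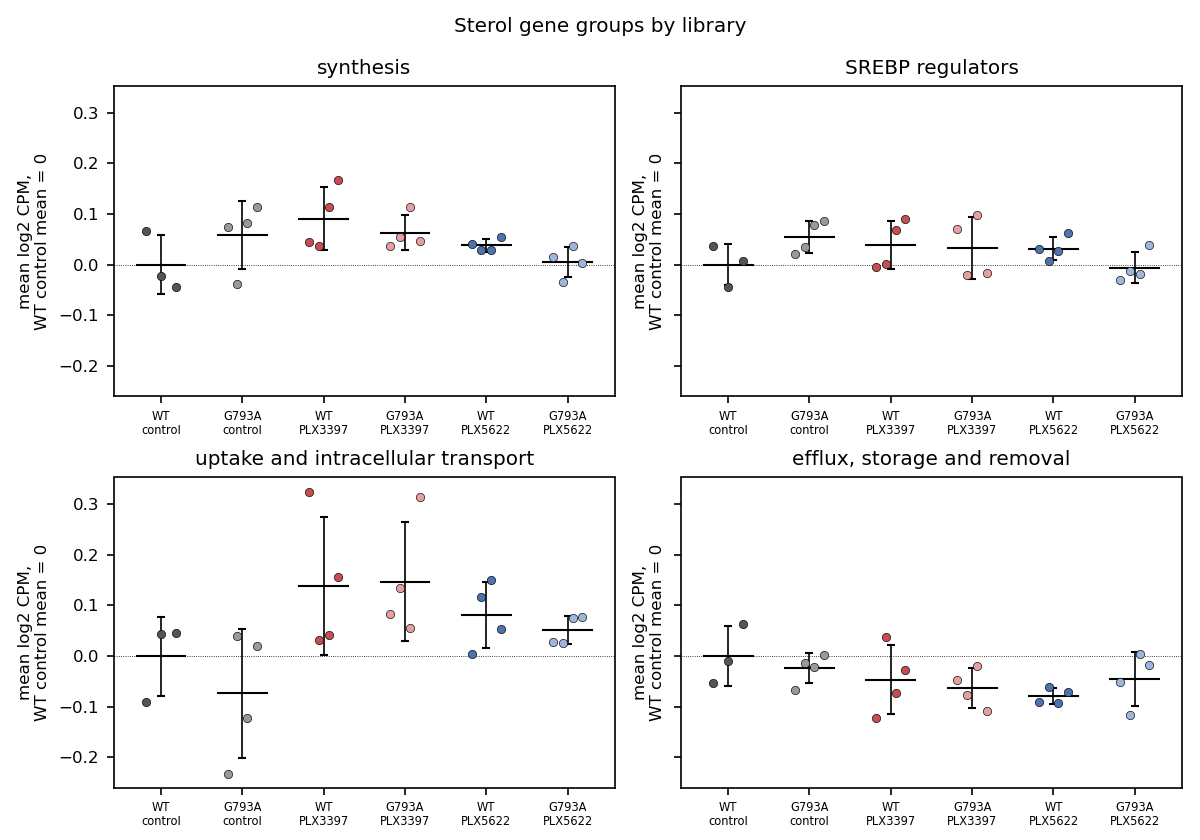
Mean log2 CPM over the genes of each role in every library (points), set so that the WT control mean is 0 (y axis), by group (x axis), with bars for the group mean and SD. The synthesis mean was 0.09 ± 0.06 in WT PLX3397 and 0.04 ± 0.01 in WT PLX5622, and the WT control libraries spanned −0.04 to 0.07. It was 0.06 ± 0.07 in G793A control, 0.06 ± 0.03 in G793A PLX3397 and 0.00 ± 0.03 in G793A PLX5622.

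Of the 5 regulators of the sterol response, 3 were above 0 in WT PLX3397 and 2 in WT PLX5622 against WT control. Against G793A control, 1 of 5 was above 0 with PLX3397 (median −0.03) and 1 of 5 with PLX5622 (median −0.06). In G793A control against WT control, 4 of 5 were above 0 (median 0.01). Insig1, a target of SREBP that feeds back on it, was at 89.1, 79.3 and 75.6 CPM in the WT controls, 92.7, 82.8, 97.1 and 108 CPM with PLX3397 and 96.2, 99.6, 83.7 and 99.3 CPM with PLX5622. In G793A the Insig1 values were 78.7, 83.2, 95.4 and 103 CPM in the controls, 94.4, 91.6, 101 and 91.2 CPM with PLX3397 and 86.01, 105, 92.95 and 101 CPM with PLX5622. The difference from WT control was 0.22 ± 0.09 with PLX3397 (adjusted p = 0.486, edgeR) and 0.22 ± 0.09 with PLX5622 (adjusted p = 0.493), and 1 library of each group lay inside the control range. Against the same WT controls the difference was 0.22 ± 0.09 for G793A PLX3397, 0.24 ± 0.09 for G793A PLX5622 and 0.14 for G793A control. Insig2, Scap and Srebf2 stayed between −0.06 and 0.09 in the comparisons within genotype except Scap in G793A PLX5622 at −0.08 and Insig2 in G793A PLX3397 at −0.07. Srebf2 was at 247, 244 and 239.8 CPM in the WT controls, 243, 261, 269 and 262 CPM with PLX3397 and 238, 244, 259 and 252 CPM with PLX5622. In G793A its values were 243, 258, 239 and 244 CPM in the controls, 251, 231, 254 and 236 CPM with PLX3397 and 241, 218, 239 and 247 CPM with PLX5622. All of these Srebf2 groups overlapped their controls.

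Srebf1, which encodes the SREBP tied mainly to fatty acid genes and is itself an LXR target, was at 59.5, 49.5 and 64.5 CPM in the WT controls, 56.1, 52.1, 54.5 and 53.6 CPM with PLX3397 and 55.6, 50.7, 59.7 and 54.7 CPM with PLX5622. G793A libraries held Srebf1 at 60.6, 60.9, 68.3 and 62.5 CPM in the controls, 57.4, 61.6, 64.5 and 55.9 CPM with PLX3397 and 48.5, 50.1, 56.01 and 57.04 CPM with PLX5622. Every G793A PLX5622 library lay below every G793A control, with a difference of −0.25 ± 0.07 (95% interval −0.40 to −0.10, adjusted p = 0.154, edgeR). The adjusted p was 0.0395 by DESeq2, 0.043 without G793A control replicate 2 and 0.559 without G793A control replicate 3. The value was −0.22 after length and GC trends were taken out. In WT PLX5622 the difference was −0.07 ± 0.08, with overlapping libraries. Of 4 choroid plexus markers, 2 were lower at an unadjusted p under 0.05 in G793A PLX5622 than in G793A control and 0 passed the threshold, and their part in the Pmvk and Srebf1 values was not tested.

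Uptake and transport were measured by a pair of members. Lrp1, a large endocytic receptor for apolipoprotein E particles that neurons and glia share, was at 308, 378 and 416 CPM in the WT controls, 499, 391, 348 and 397 CPM with PLX3397 and 342, 366, 408 and 352 CPM with PLX5622. Lrp1 in G793A reached 297, 375, 319.7 and 359.7 CPM in the controls, 425, 472, 362 and 537 CPM with PLX3397 and 377, 318, 389.9 and 395 CPM with PLX5622. The G793A PLX3397 libraries tended high, yet the lowest of them lay inside the control range. The difference of 0.41 ± 0.12 (95% interval 0.16 to 0.66) was the largest of any member within genotype and missed the threshold (adjusted p = 0.32, edgeR). With each library left out in turn it ran from 0.31 to 0.50, with adjusted p from 0.0991 to 0.837, and it was 0.27 with the length and GC trends taken out. In WT the difference was 0.15 ± 0.13 with PLX3397 and 0.00 ± 0.13 with PLX5622. Stard4, a carrier of cholesterol between membranes, was at 49.6, 48.7 and 44.4 CPM in the WT controls, 54.4, 46.3, 52.8 and 54.2 CPM with PLX3397 and 50.99, 55.7, 52.2 and 52.9 CPM with PLX5622. In G793A the Stard4 values were 42.2, 48.8, 45.7 and 49.5 CPM in the controls, 45.6, 44.2, 51.6 and 49.9 CPM with PLX3397 and 47.8, 56.3, 49.3 and 48.7 CPM with PLX5622. WT PLX5622 lay above WT control in all 4 libraries, by 0.16 ± 0.07 (adjusted p = 0.567).

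**Figure D3:**
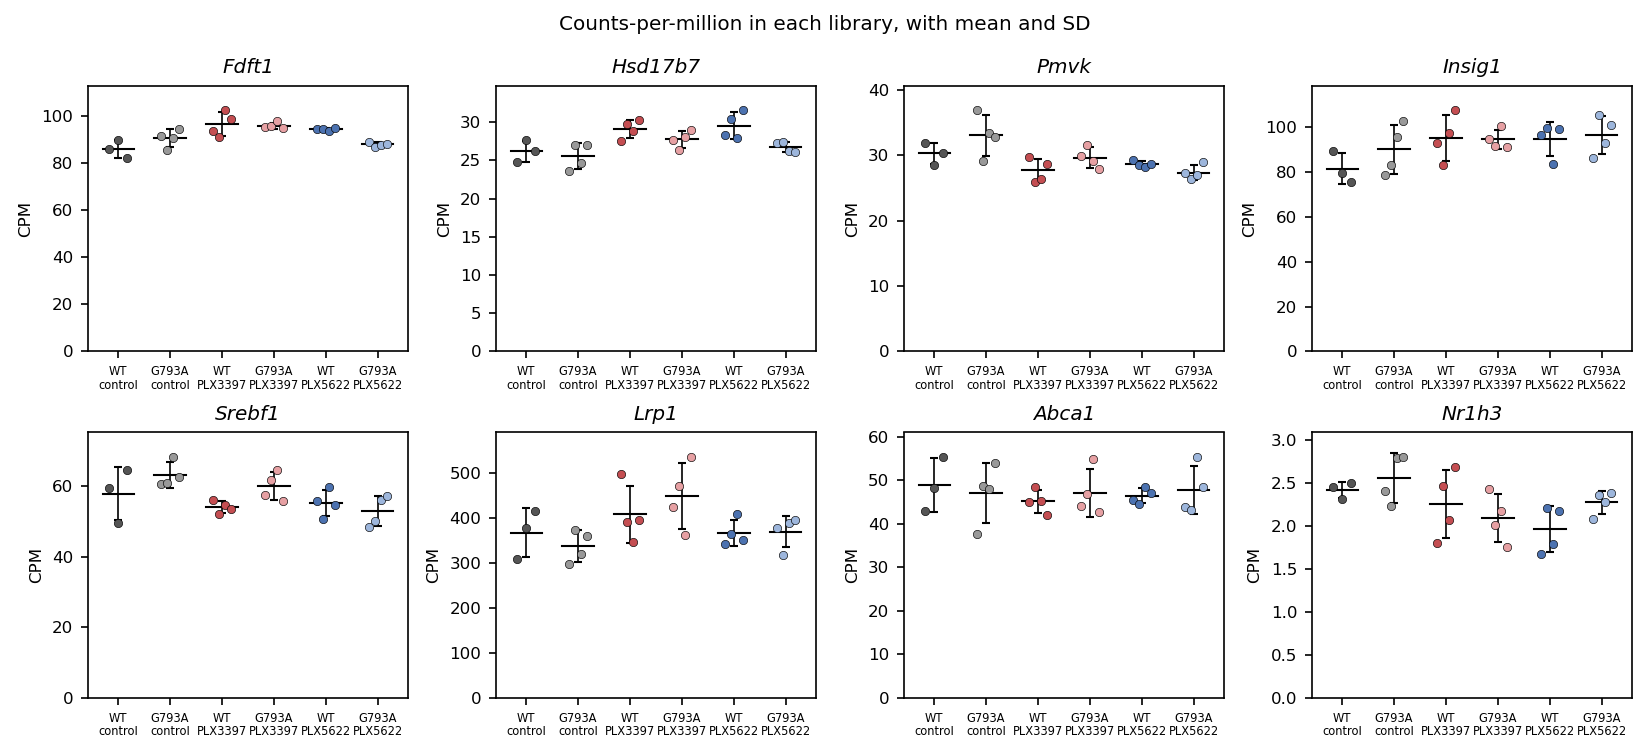
CPM (y axis, from 0) of 8 sterol genes in each of the 23 libraries (points) by group (x axis), with bars for the mean and SD. Fdft1 in all 8 WT inhibitor libraries exceeds the 3 WT controls, and Lrp1 spreads from 361.9 to 537.2 CPM within G793A PLX3397.

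Efflux, storage and removal genes had medians of −0.05 with PLX3397 and −0.07 with PLX5622 in WT, and −0.02 and −0.05 in G793A, with 2, 2, 3 and 3 of 6 above 0. Abca1, which loads cholesterol onto apolipoproteins, was at 42.96, 48.2 and 55.4 CPM in the WT controls, 45.03, 48.5, 45.2 and 42.04 CPM with PLX3397 and 45.5, 44.5, 48.5 and 47.04 CPM with PLX5622. In G793A it was at 37.7, 48.7, 47.9 and 53.9 CPM in the controls, 43.98, 46.9, 54.9 and 42.6 CPM with PLX3397 and 43.8, 43.3, 55.2 and 48.5 CPM with PLX5622. Its differences were −0.11 ± 0.11 and −0.08 ± 0.11 in WT and 0.00 ± 0.10 and 0.02 ± 0.10 in G793A, with all groups overlapping (adjusted p = 0.853 to 0.991, edgeR). Abcg1, which exports to lipoproteins, was at 82.8, 88.4 and 101 CPM in the WT controls, 89.1, 94.1, 91.3 and 92 CPM with PLX3397 and 95.2, 93.5, 94.6 and 85.2 CPM with PLX5622. The G793A values were 88.2, 92.2, 76.8 and 80.2 CPM in the controls, 86.9, 84.4, 90.5 and 96.6 CPM with PLX3397 and 91.96, 95.99, 84.3 and 94.2 CPM with PLX5622. It differed by 0.01 and 0.02 in WT, with intervals of −0.13 to 0.16 and −0.12 to 0.16.

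The LXR receptors sense oxysterols. Nr1h3, the form enriched in macrophage lineages, was at 2.45, 2.32 and 2.50 CPM in the WT controls, 1.80, 2.47, 2.07 and 2.69 CPM with PLX3397 and 1.68, 2.21, 1.79 and 2.18 CPM with PLX5622. In G793A it was at 2.40, 2.23, 2.79 and 2.81 CPM in the controls, 2.43, 2.02, 2.18 and 1.75 CPM with PLX3397 and 2.08, 2.37, 2.28 and 2.38 CPM with PLX5622. The 4 WT PLX5622 libraries lay below the 3 controls, by −0.30 ± 0.16 (95% interval −0.62 to 0.02, adjusted p = 0.639, edgeR), and WT PLX3397 overlapped them (−0.10 ± 0.15). Microglia markers were low in the same WT groups, and their part in the Nr1h3 values was not tested. In G793A PLX3397 the Nr1h3 difference from G793A control was −0.28 ± 0.14. The Nr1h3 mean was 2.28 CPM in G793A PLX5622 and 2.56 CPM in G793A control, with overlapping libraries. The 6 border macrophage markers summed to 24.8 to 28.9 CPM in WT controls. They summed to 4.95 to 6.66 CPM in WT PLX3397 and 4.97 to 6.17 CPM in WT PLX5622. In G793A they summed to 20.7 to 24.03 CPM in the controls, 16.02 to 18.5 with PLX3397 and 15.03 to 19.4 with PLX5622. All 6 markers were lower in each WT comparison with an inhibitor, and 5 of them passed the threshold. Against G793A control, 4 were lower at an unadjusted p under 0.05 in G793A PLX3397 and 1 in G793A PLX5622. In both, 0 passed the threshold. Their part was not tested either. Nr1h2, which encodes LXR beta, differed by −0.07 and −0.06 in WT and by −0.05 and −0.13 in G793A.

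Storage and disposal genes also overlapped in all comparisons with controls. Soat1, which esterifies cholesterol for storage, was at 43.4, 48.3 and 55 CPM in the WT controls, 49.6, 50.8, 45.6 and 46 CPM with PLX3397 and 49.8, 49.5, 41.04 and 40.4 CPM with PLX5622. In G793A it was at 43.2, 46.1, 43.1 and 43.6 CPM in the controls, 39.9, 47.8, 46.5 and 48.9 CPM with PLX3397 and 49.4, 43.8, 53.05 and 47.5 CPM with PLX5622. Its differences were −0.03 ± 0.09 and −0.11 ± 0.09 in WT and 0.06 ± 0.08 and 0.14 ± 0.08 in G793A. The genotypes differed in the PLX5622 effect by 0.25 ± 0.12 (adjusted p = 0.659, edgeR), short of the threshold. Cyp46a1 was at 159.8, 168 and 143 CPM in the WT controls, 157, 163, 159.8 and 154 CPM with PLX3397 and 145, 157, 186 and 167 CPM with PLX5622. In G793A its levels were 179, 177, 142 and 142 CPM in the controls, 166, 153, 148 and 150.4 CPM with PLX3397 and 159, 126, 154 and 150.1 CPM with PLX5622. The WT differences were 0.01 ± 0.09 and 0.06 ± 0.09. The lowest library for Cyp46a1 was G793A PLX5622 replicate 2 at 126 CPM, which had the highest cerebellar markers. That library was also the lowest of all for Fdps, Tm7sf2, Dhcr7 and Srebf2 and the highest for Stard4. The part of the cerebellar markers in these values was not tested.

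Control diets were compared between genotypes, and the compounds with each other. In G793A control against WT control, 21 of 31 members were above 0, with a median of 0.05, and the libraries overlapped for every member, as they did for all but 2.71% (higher) and 2.91% (lower) of all genes. Of all genes, 48.3% were above 0. With length and GC trends taken out, the median over the members was 0.01 with 20 of 31 above 0, and Lrp1 turned from −0.12 to 0.06. In G793A, PLX5622 against PLX3397 gave −0.13 ± 0.04 for Fdft1 (adjusted p = 0.686, edgeR), −0.18 ± 0.08 for Mvk, −0.13 ± 0.06 for Fdps, −0.18 ± 0.07 for Srebf1 and −0.28 ± 0.12 for Lrp1. These 5 had an unadjusted p under 0.05 and missed the threshold. The doses of the compounds were not matched.

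**Figure D4:**
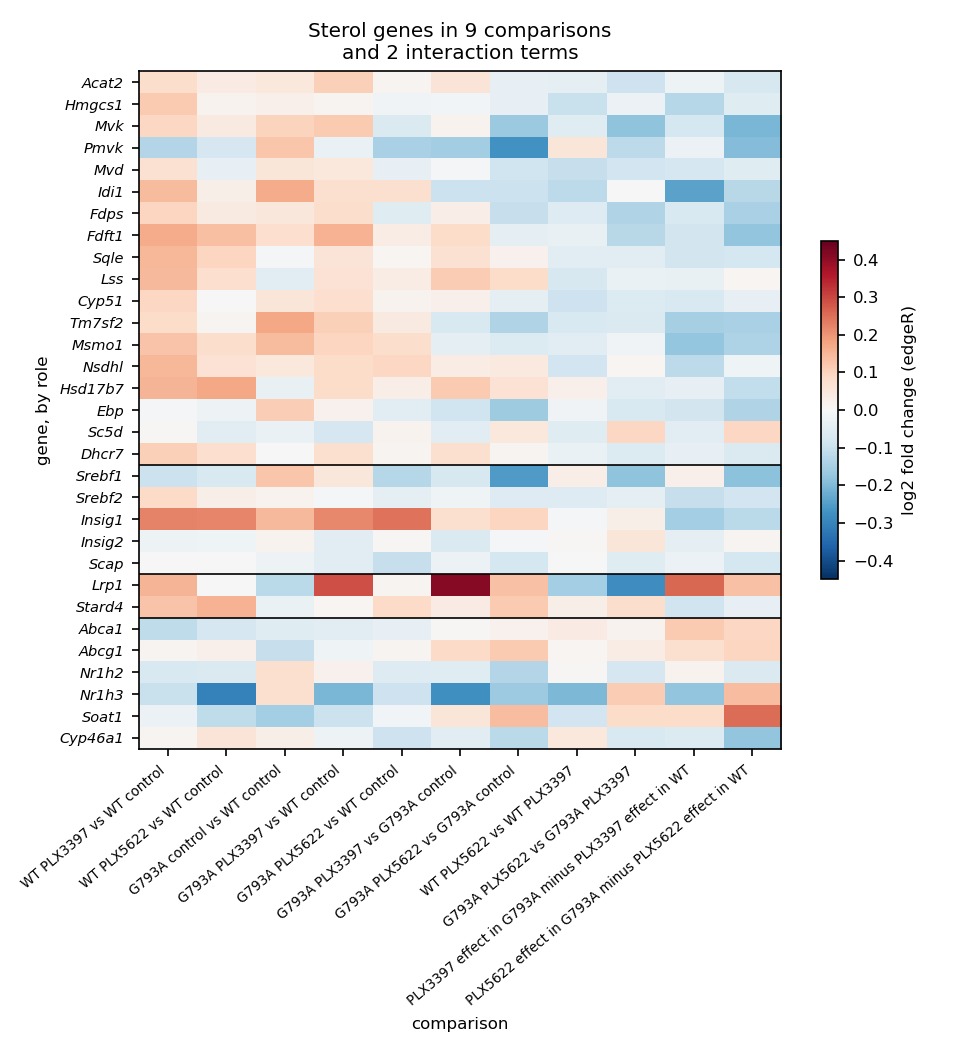
Log2 fold change (colour) of the 31 sterol genes, ordered by role (y axis), in 9 comparisons and 2 interaction terms (x axis), with lines between roles. Against WT control, synthesis genes are above 0 in 16 of 18 cases in WT PLX3397, 16 in G793A PLX3397 and 14 in G793A control. They are below 0 in all 18 in the PLX3397 interaction.

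Transcript length moved with the fold change in most comparisons that involve G793A groups. In G793A control against WT control, the median log2 fold change over all genes was 0.11 in the shortest of 5 equal bins of transcripts and −0.10 in the longest. In G793A PLX5622 against G793A control it was −0.10 and 0.09, and in G793A PLX3397 −0.07 and 0.05. For the interaction terms it was −0.04 and 0.02 with PLX3397, and −0.10 and 0.08 with PLX5622. Without the G793A controls it was 0.05 and −0.04 in G793A PLX3397 against WT control, −0.03 and 0.04 in G793A PLX5622 against G793A PLX3397, and 0.02 and −0.01 in G793A PLX5622 against WT control. In WT PLX5622 against WT PLX3397 it was 0.03 and −0.02. In WT these bins ran from −0.01 to 0.03 with PLX3397 and were at 0.01 in all 5 with PLX5622. Pmvk, with a transcript of 1.19 kb, and Lrp1, with one of 14.9 kb, are at opposite ends of the members, and their values without the trend, given above, were −0.12 and 0.27.

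**Figure D5:**
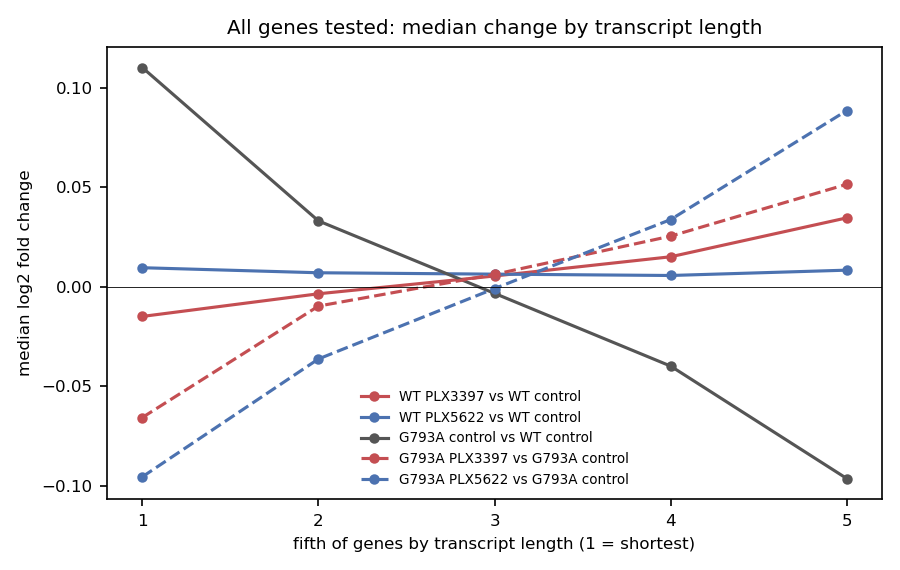
Median log2 fold change (y axis) over all genes tested in each of 5 equal bins by transcript length (x axis, 1 = shortest), for 5 comparisons (lines). G793A control against WT control falls from 0.11 to −0.10, and WT PLX5622 against WT control stays at 0.01.

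Across the 23 libraries, correlations between members are given as a description, since all share libraries and depth. Pairs of synthesis genes had a median Pearson r of 0.28 (log2 CPM, 119 of 153 pairs above 0). Pairs of efflux, storage and removal genes had −0.19 (5 of 15 above 0), and a synthesis gene with one of these genes −0.02 (52 of 108 above 0). Fdft1 had the highest mean r with the other synthesis genes at 0.39, then Fdps at 0.37 and Cyp51 at 0.35, and Pmvk at 0.04 and Ebp at 0.02 were lowest. The gene most like the mean of the 18 synthesis genes was Tmem97 (r = 0.71, 23 libraries), which encodes a sterol-binding membrane protein, followed by Ugt1a6a (0.70), Grik4 (0.67), Gm52969 (0.67) and Zcchc17 (0.67). Closest to Abca1 were Mfsd13b (0.75), Synpr (0.75), Peli2 (0.74), Homer2 (0.69) and Fxyd4 (0.68).

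A further 48 genes of lipoprotein uptake, lysosomal export, efflux, sterol sensing, fatty acid synthesis and side branches of the mevalonate route were examined, of which 47 passed the filter. None of the 47 passed the threshold in any of the 11 contrasts by edgeR. An unadjusted p under 0.05 was reached by 8.51% of them in WT PLX3397 (4 genes, next to 8.21% of all genes), 6.38% in WT PLX5622 (3 genes, next to 8.43%) and 14.9% in G793A control (7 genes, next to 11.1%), each against WT control. Against G793A control the share with PLX3397 was 25.5% (12 genes, 6 higher and 6 lower, next to 11.7%). With PLX5622 the share was 27.7% (13 genes, 5 higher and 8 lower, next to 16.3%). Both comparisons with G793A control held the transcript length trends given above, whose part in these shares was not tested. DESeq2 called 1 in WT PLX5622 against WT control (1.72% of the genes it gave an adjusted p). It called 2 in G793A PLX5622 against G793A control (4.73% of such genes) and 0 in the other contrasts, and limma called 0. Mylip, a ubiquitin ligase that degrades lipoprotein receptors and is an LXR target, had the smallest p in WT, at −0.35 ± 0.10 with PLX3397 (adjusted p = 0.125) and −0.38 ± 0.11 with PLX5622 (adjusted p = 0.0757), and its inhibitor libraries were below the controls in both. Lipa, the lysosomal acid lipase, differed by −0.19 ± 0.07 and −0.21 ± 0.07 (adjusted p = 0.376 and 0.235). Cyp27a1, a sterol hydroxylase found in macrophages, differed by −0.33 ± 0.14 with PLX3397 (adjusted p = 0.489). It is 1 of 12 tested genes of efflux and lipoproteins. In WT PLX5622 none of the 12 was below −0.165, and 0 had an unadjusted p under 0.05.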

How the data were processed

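Brain RNA was sequenced in 23 libraries of 6 groups from oligo-dT selected, strand-marked libraries, per the labels' protocols. The authors deposited estimated counts per gene (expected counts, 45.3% of values not whole), made with kallisto 0.46.1 on GRCm39, with FastQC 0.11.9 and DESeq2 1.26.0 also named, per the submitters' processing notes. The step from transcripts to genes: not given in the sources used here. For one alternative only, the deposited variance-stabilised log2 values were used. Counts were rounded, and 1 unnamed entry (0.00828% to 0.0151% of counts) was left out. After filterByExpr (minimum count 10, minimum total 15), 16209 of 22310 genes were fitted in one model over all groups with edgeR 4.0.16 (TMM, robust quasi-likelihood) in R 4.3.3, with Benjamini-Hochberg adjustment over all 16209 genes. CPM were computed from these counts, and log2 CPM with a prior count of 2. The code was tested on simulated data. Alternatives were RLE scaling, no filter, DESeq2 1.42.0, limma 3.58.1, a replicate block, only the compared groups, removal of length and GC trends (98% of genes matched), and leaving libraries out. The members, lists and rules were chosen with earlier results of these data known. The transcript length definition (longest) and the printed promoters were chosen after values had been seen. All 31 genes are named; single libraries are given for the 3 members with the smallest p in each comparison within genotype and for 12 genes set by role. Totals of 26.3 to 48.2 mega-counts lie behind each library, and the spread between libraries had a common biological coefficient of variation of 0.0998.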

Additional observations from a re-analysis of the deposited data

Results flagged for a closer look

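Within the groups of 4 libraries, 3 of 175 sets of values held a library far from the rest by Dixon's test at 95%, where chance gives about 1 in 20. Tm7sf2 was at 10.5 CPM in G793A PLX5622 replicate 2 and at 12.78 to 13.04 CPM in the other libraries of that group. That library also had the high cerebellar markers, whose part was not tested. Ebp was at 13.1 CPM in WT PLX3397 replicate 1 and at 15.8 to 16.1 CPM in the others. Soat1 was at 46.1 CPM in G793A control replicate 2 and at 43.1 to 43.6 CPM in the others.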

How the results depend on the processing

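Over the alternatives run, 6758 values were recomputed for 341 pairs of a member and a contrast. Of these, 6 passed the threshold, and they belong to 3 pairs, Fdft1 in WT PLX3397 against WT control and Pmvk and Srebf1 in G793A PLX5622 against G793A control. A sign differed from the main one in 476 values, none with an unadjusted p under 0.05 in the main analysis and all with a main size of at most 0.20 (log2), and these were not counted as reversals because neither value passed the threshold. DESeq2 called 1 member in WT PLX3397 (301 of the 18365 genes with an adjusted p) against its control. It called 2 in G793A PLX5622 (331 of the 7003 genes with an adjusted p) against its control.

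Counts over all genes moved by over 1.5 times as follows. DESeq2 gave 30 genes in G793A PLX3397 and 8 in G793A PLX5622 against WT control, 28 and 331 against G793A control, 12 between the compounds in WT and 2 in G793A. For G793A PLX3397 against WT control (1 gene), RLE scaling gave 2, no filter 2, limma 2, and the compared groups alone 0. For G793A PLX5622 against WT control (0 genes), the compared groups alone gave 3 and limma 1. For G793A PLX3397 against G793A control (1 gene), the compared groups alone gave 0 and limma 0. Between the compounds, WT gave 1 with no filter and 6 without both libraries with high cerebellar markers (over 3 times the median, an alternative added after seeing the data), and G793A gave 0 with the compared groups alone. Limma gave 58 genes for the PLX3397 interaction, against 90. The cause was not tested.

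Removing length and GC trends gave 0 genes for G793A PLX3397 against WT control, 1 between the compounds in WT and 0 in G793A. The definition of transcript length, the longest, was chosen after 2 others had been tried. Their medians over all protein-coding transcripts gave 1, 1 and 1 in these 3 comparisons, and over basic protein-coding transcripts 0, 1 and 0. All 3 definitions gave 0 members in every contrast.

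Leaving out 1 library at a time, members called ran from 0 to 1 in WT PLX3397, 0 to 2 in G793A PLX5622 against G793A control, and stayed at 0 in the other contrasts. Genes ran from 181 to 216 in WT PLX3397, 220 to 278 in WT PLX5622, 0 to 375 in G793A control, 0 to 4 in G793A PLX3397 and 0 to 1 in G793A PLX5622, each against WT control. They ran from 0 to 23 and 0 to 980 in these groups against G793A control, from 0 to 7 and 0 to 1 between the compounds in WT and G793A, and from 68 to 93 and 115 to 144 in the interactions. The counts of 375, 23 and 980 came without G793A control replicate 2, the 7 without WT PLX5622 replicate 1.

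Residuals of libraries with the same replicate number in the labels had a median r of 0.0055 over 55 pairs (−0.195 to 0.148). The others had a median of 0.0015 over 165 pairs (−0.164 to 0.212). Whether some same-numbered libraries were paired, or alike in some genes only, was not tested. With the replicate block, 214 and 249 genes were called in WT PLX3397 and WT PLX5622 and 0 in G793A PLX3397 against WT control, and 0 members in every contrast. An adjusted p above the threshold does not show that a member did not change, and the 95% intervals in the report give the sizes these libraries leave possible.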
